A study of Mus musculus with 15 samples.

Results

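The 35 genes described here make cholesterol and fatty acids or control their making. They are a named list: 7 genes of the mevalonate steps, 11 of the later sterol steps, 6 regulators, 2 genes of sterol transport and 9 of fatty acid synthesis. They are 35 of the 34910 genes in the count table, and all 35 were among the 15141 genes that passed the low-count filter. RNA came from wild type mouse neural progenitor cells, dividing precursors of neurons and glia, grown with FGF2, EGF and heparin. Cells of every group received a plasmid that carries EGFP and a hairpin (shRNA, an RNA made to deplete transcripts it pairs with), and those positive for GFP were collected by sorting after 3 days. The 5 groups of 3 libraries were shLINE_Orf1+LINE-1 (the shLINE_Orf1 hairpin together with a full-length LINE-1), shLINE_MdV_I, shLINE_Orf2, shLINE_Orf1 and shControl. The hairpins are directed at LINE-1 elements, repeats that copy themselves through RNA. The design text speaks of hairpins against young and old LINE-1 and pairs the added LINE-1 with a hairpin against young elements, while the labels do not say which age shLINE_Orf2 and shLINE_MdV_I match. No source used here names the promoters of the hairpins or of the added LINE-1, and LINE-1 RNA was not analysed here, so the knockdown itself was not checked. Whether the 3 libraries of a group are separate cultures is not stated in the labels, so each p-value reflects the spread of these libraries alone, which may be technical.

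Cholesterol is built from acetyl-CoA through mevalonate, farnesyl diphosphate, squalene and lanosterol, while fatty acids are built from the same acetyl-CoA through malonyl-CoA and are then elongated and desaturated. Most of these enzymes are transcribed under the SREBP factors, encoded by Srebf1 and Srebf2. When sterols are scarce, SCAP carries an SREBP precursor to the Golgi for cleavage, and when sterols are plentiful the INSIG proteins hold SCAP back in the endoplasmic reticulum. The liver X receptors sense oxidised sterols and raise genes of sterol export such as Abca1, as well as Srebf1. In the developing brain, cells make their own cholesterol, because lipoproteins of the blood do not cross into it.

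The libraries held between 39204176 and 51070448 gene counts, and the 35 genes together took between 0.853% and 1.30% of them. The 8 neural progenitor markers were all tested and summed to between 5985 and 9831 CPM (counts scaled to a common library size, with TMM factors) in every library. Of 5 microglia markers 2 passed the filter, which summed to at most 2.44 CPM, and Aif1 was at 0 in every library. Markers of other cell types differed across the 5 groups: Neurod1 of the neuron list, with an edgeR adjusted p of 0.047, and Sox10 of the oligodendrocyte list, with one of 0.0262. An unadjusted edgeR p under 0.05 was found for 4 of 5 tested neuron markers, 2 of 4 oligodendrocyte markers and 3 of 6 astrocyte markers. The same held for 1 of 2 microglia markers, 0 of 8 neural progenitor markers, 0 of 1 endothelial and 0 of 1 fibroblast markers. Of all genes 12% had such a p. The library shLINE_Orf1 replicate 1, and less so shControl replicate 2, stood apart on the first principal component, at 75.9 and 24.3, against values between -18.8 and 4.72 in the other libraries. In shLINE_Orf1 replicate 1 mitochondrial mRNA was 3.61% of counts, against 1.36% to 2.02% elsewhere. These are bulk samples, so fewer cells of a type and less RNA per cell cannot be told apart.

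Acss2 was the only gene of the 35 whose level differed across the 5 groups after adjustment. Acss2, the cytosolic enzyme that turns acetate into acetyl-CoA, stood higher in both the shLINE_MdV_I and the shLINE_Orf2 cells than in the other 3 groups. By edgeR's quasi-likelihood test of all 5 groups with Benjamini-Hochberg adjustment, 1 of 35 genes was called at an adjusted p under 0.05, against 0.944% of all 15141 genes, and Acss2 had an adjusted p of 0.00836 and rank 22 by p. At an unadjusted p under 0.05 there were 9 of the 35, against 12% of all genes. DESeq2 called 6 of the 35, against 6.28% of all genes: Acss2, Hmgcs1, Hsd17b7, Dhcr7, Insig2 and Abca1. Without shLINE_Orf1 replicate 1 and shControl replicate 2, edgeR called 5 of the 35, against 6.03% of all genes: Acss2, Hsd17b7, Insig2, Scap and Tm7sf2.

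Acss2 lies at chr2:155517948-155585724 on the plus strand of GRCm38. It measured 94.8, 91.2 and 89.2 CPM in the shLINE_Orf1+LINE-1 libraries and 130.1, 125.3 and 130.0 CPM in the shLINE_MdV_I libraries. It measured 157.5, 132.5 and 121.1 CPM in the shLINE_Orf2 libraries, 87.8, 95.5 and 97.3 CPM in the shLINE_Orf1 libraries and 91.8, 91.1 and 97.2 CPM in the shControl libraries. All 6 shLINE_MdV_I and shLINE_Orf2 libraries lay above all 9 others, the lowest of the 6 at 121.1 CPM and the highest of the 9 at 97.3 CPM. The 3 remaining groups overlapped one another, and shLINE_Orf2 was the group with the widest spread, at 137.0 ± 18.7 CPM (SD, n = 3).

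**Figure D1:**
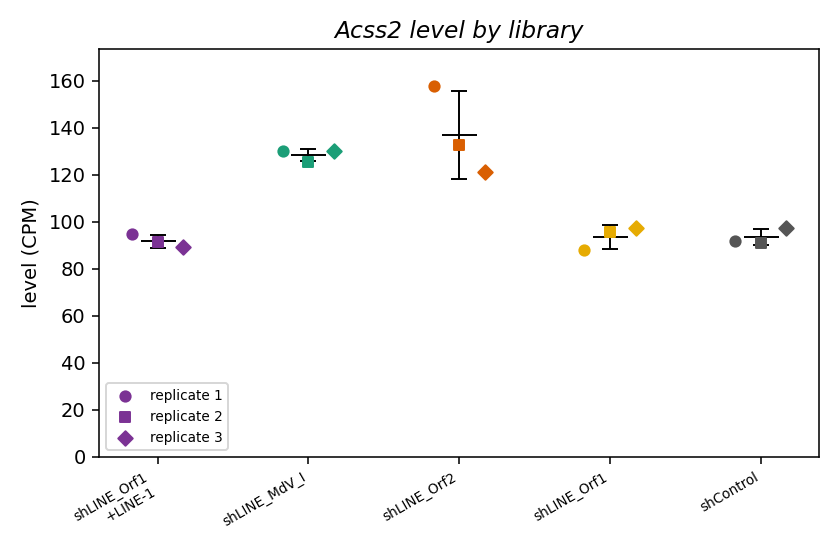
Level of Acss2 in CPM (y axis, from 0) in each library of the 5 groups (x axis), with each point a library and the bars the mean and SD of 3 libraries. The shLINE_MdV_I libraries lie between 125.3 and 130.1 CPM and the shLINE_Orf2 libraries between 121.1 and 157.5 CPM, above the other 3 groups.

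On the log2 scale Acss2 was higher by 0.55 ± 0.10 (SE) in shLINE_Orf2 than in shControl, with an adjusted p of 0.033 by edgeR's quasi-likelihood test. The difference between shLINE_MdV_I and shControl was 0.46 ± 0.10, with an adjusted p of 0.0439 by the same test, and that between shLINE_MdV_I and shLINE_Orf1 was 0.46 ± 0.10, with an adjusted p of 0.0435. These comparisons share the shControl or the shLINE_MdV_I libraries and are not independent of each other. With the full-length LINE-1 added, Acss2 was lower than in shLINE_Orf2, at -0.58 ± 0.10 with an edgeR adjusted p of 0.0192, and lower than in shLINE_MdV_I, at -0.49 ± 0.10 with an edgeR adjusted p of 0.0279. The shLINE_Orf2 cells were above the shLINE_Orf1 cells by 0.55 ± 0.10, which missed the threshold with an edgeR adjusted p of 0.0596. The shLINE_Orf1+LINE-1 and shLINE_Orf1 cells differed by -0.03 ± 0.10, with an edgeR adjusted p of 0.893. The 5 pairwise calls sat close to the threshold: each was lost without a scaling factor for library size and in 5 to 12 of the 15 fits that left out 1 library, while the call across the 5 groups held in every alternative fit.

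The main transcript, Acss2-201, carried 86.2% of the gene's level in TPM (a level scaled to transcript length, computed here from counts and full lengths). It averaged 49.9 ± 2.32 TPM in shLINE_Orf1+LINE-1, 70.4 ± 1.48 TPM in shLINE_MdV_I, 73.7 ± 13.04 TPM in shLINE_Orf2, 45.1 ± 9.85 TPM in shLINE_Orf1 and 50.4 ± 5.95 TPM in shControl (SD, n = 3 each). The second transcript, Acss2-203, averaged 4.72 ± 0.256 TPM in shLINE_Orf1+LINE-1, 7.94 ± 0.74 TPM in shLINE_MdV_I, 7.59 ± 0.989 TPM in shLINE_Orf2, 5.08 ± 1.29 TPM in shLINE_Orf1 and 3.62 ± 1.62 TPM in shControl. Both transcripts thus had their higher means in shLINE_MdV_I and shLINE_Orf2. Exons of 2 detected genes on the other strand, Gss (glutathione synthetase) and Ggt7, cover 3.89% and 1.94% of the exon bases of Acss2, and the labels do not state that strand was kept, so reads there cannot be told apart. Gss differed from shControl by -0.00 ± 0.11 in shLINE_Orf2 and by 0.11 ± 0.11 in shLINE_MdV_I on the log2 scale, and neither passed the test, with edgeR adjusted p-values of 1 and 0.89. Ggt7 differed from shControl by 0.18 ± 0.15 in shLINE_Orf2 and by 0.03 ± 0.15 in shLINE_MdV_I, and from shLINE_Orf1 by 0.31 ± 0.15 in shLINE_Orf2, with edgeR adjusted p-values of 0.97, 0.979 and 0.438. These neighbours were chosen for their overlap after the value of Acss2 was seen.

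Sox10, a factor of the oligodendrocyte lineage, was high in the same libraries as Acss2. It measured 3.65, 3.10 and 3.08 CPM in shLINE_Orf1+LINE-1, 8.41, 7.13 and 5.34 CPM in shLINE_MdV_I and 7.53, 7.72 and 5.71 CPM in shLINE_Orf2, against 2.76, 4.71 and 2.85 CPM in shLINE_Orf1 and 4.64, 4.24 and 4.94 CPM in shControl. The lowest library of shLINE_MdV_I and shLINE_Orf2 thus lay above the highest of the other 3 groups for Sox10, as for Acss2. The 4 tested oligodendrocyte markers of 6 summed to 98.0 to 107.2 CPM in shLINE_Orf1+LINE-1, 112.7 to 122.4 CPM in shLINE_MdV_I, 106.1 to 127.0 CPM in shLINE_Orf2, 108.6 to 124.9 CPM in shLINE_Orf1 and 122.7 to 135.9 CPM in shControl. Neurod1, a factor of newborn neurons, was at 0.959 to 1.19 CPM in shLINE_MdV_I but at 0.101 to 0.322 CPM in shLINE_Orf2, against 0.365 to 0.967 CPM in shControl. Its mean log2 CPM was -1.20, near the floor, so its values rest on few counts. The part of these markers in the level of Acss2 was not tested.

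Promoters are shown for Acss2, the gene called, and for Hmgcs1, an early enzyme of the sterol arm that stayed below the threshold. The 250 bases before each RefSeq start are printed 5′ to 3′ on the plus strand of GRCm38.p6, for Acss2 chr2:155517793-155518042 and for Hmgcs1 chr13:119690101-119690350. The Acss2 bases run past the gene start given above, 155517948, so positions in them are relative to the RefSeq start alone. Capitals mark the letters TCACNCCAC, a sterol regulatory element at which SREBP factors bind, and CCAAT, the box bound by NF-Y, each searched on both strands.
Acss2: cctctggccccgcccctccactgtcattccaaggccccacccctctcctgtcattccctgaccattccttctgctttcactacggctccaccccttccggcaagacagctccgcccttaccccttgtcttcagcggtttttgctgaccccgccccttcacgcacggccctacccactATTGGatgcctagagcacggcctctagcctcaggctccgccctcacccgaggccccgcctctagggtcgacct
Hmgcs1: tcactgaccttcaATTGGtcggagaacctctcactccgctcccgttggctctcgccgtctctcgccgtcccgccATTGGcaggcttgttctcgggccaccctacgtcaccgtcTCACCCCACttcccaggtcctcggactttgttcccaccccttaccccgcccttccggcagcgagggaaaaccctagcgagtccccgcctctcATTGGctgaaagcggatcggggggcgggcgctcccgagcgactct
The sterol element was found at base -137 from the start in Hmgcs1 and not in these 250 bases of Acss2, while CCAAT in its reverse form stood at base -73 in Acss2 and at 3 places in Hmgcs1. The table held 36 promoters of 28 genes of the list, of which 1 (2.78%) held the sterol element and 21 (58.3%) a CCAAT box. Of all 32851 promoters of this length, 1.05% held the sterol element and 33.8% a CCAAT box. A match of letters is a description and does not show binding.

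The other 8 genes of fatty acid synthesis did not pass the test in any of the 10 pairs, by DESeq2 or edgeR's 5-group fit, and 0 to 2 of them a pair had an unadjusted p under 0.05, against 5.46% to 16.4% of all genes. With the last number of the library description as a covariate, edgeR called Acly, Acaca and Fasn higher in shLINE_MdV_I than in shLINE_Orf1. The edgeR adjusted p-values were then 0.0228, 0.0271 and 0.0264. Fasn, the fatty acid synthase, measured 621.3, 624.9 and 601.8 CPM in shLINE_Orf1+LINE-1, 646.4, 542.9 and 456.1 CPM in shLINE_MdV_I, and 549.3, 505.6 and 519.9 CPM in shLINE_Orf2. It measured 282.4, 533.2 and 485.6 CPM in shLINE_Orf1 and 535.0, 404.0 and 593.8 CPM in shControl. The lowest value came from shLINE_Orf1 replicate 1, and all 3 libraries with added LINE-1 lay above all shLINE_Orf1 libraries. The difference between those 2 groups was 0.51 ± 0.20 on the log2 scale, with an edgeR adjusted p of 0.422. Acly, which splits citrate into cytosolic acetyl-CoA, and Acaca, which makes malonyl-CoA, were also lowest in shLINE_Orf1 replicate 1, at 224.0 and 37.6 CPM.

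Scd1, a desaturase that places the first double bond in saturated fatty acids, measured 348.2, 335.2 and 327.5 CPM in shLINE_Orf1+LINE-1, 355.8, 339.7 and 295.1 CPM in shLINE_MdV_I and 389.9, 397.5 and 358.3 CPM in shLINE_Orf2. In shLINE_Orf1 it measured 218.5, 387.0 and 321.9 CPM and in shControl 363.2, 280.9 and 334.1 CPM, so that every group overlapped shControl. Scd2, its relative and the gene of the list with the most counts, measured 3178, 3186 and 3128 CPM in shLINE_Orf1+LINE-1, 3304, 2974 and 2873 CPM in shLINE_MdV_I and 3518, 3189 and 2797 CPM in shLINE_Orf2. It measured 2097, 3479 and 2984 CPM in shLINE_Orf1 and 3160, 2568 and 3194 CPM in shControl, and no pair of groups separated. Elovl6, which lengthens palmitate, measured 62.7, 79.5 and 80.9 CPM in shLINE_MdV_I and 54.4, 47.5 and 59.5 CPM in shLINE_Orf2, without overlap. That difference was 0.47 ± 0.14 on the log2 scale, with an edgeR adjusted p of 0.377. Fads1 and Fads2, the delta-5 and delta-6 desaturases, differed from shControl by at most 0.29 on the log2 scale in any group, Fads2 in shLINE_Orf1+LINE-1, with an edgeR adjusted p of 0.419.

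**Figure D2:**
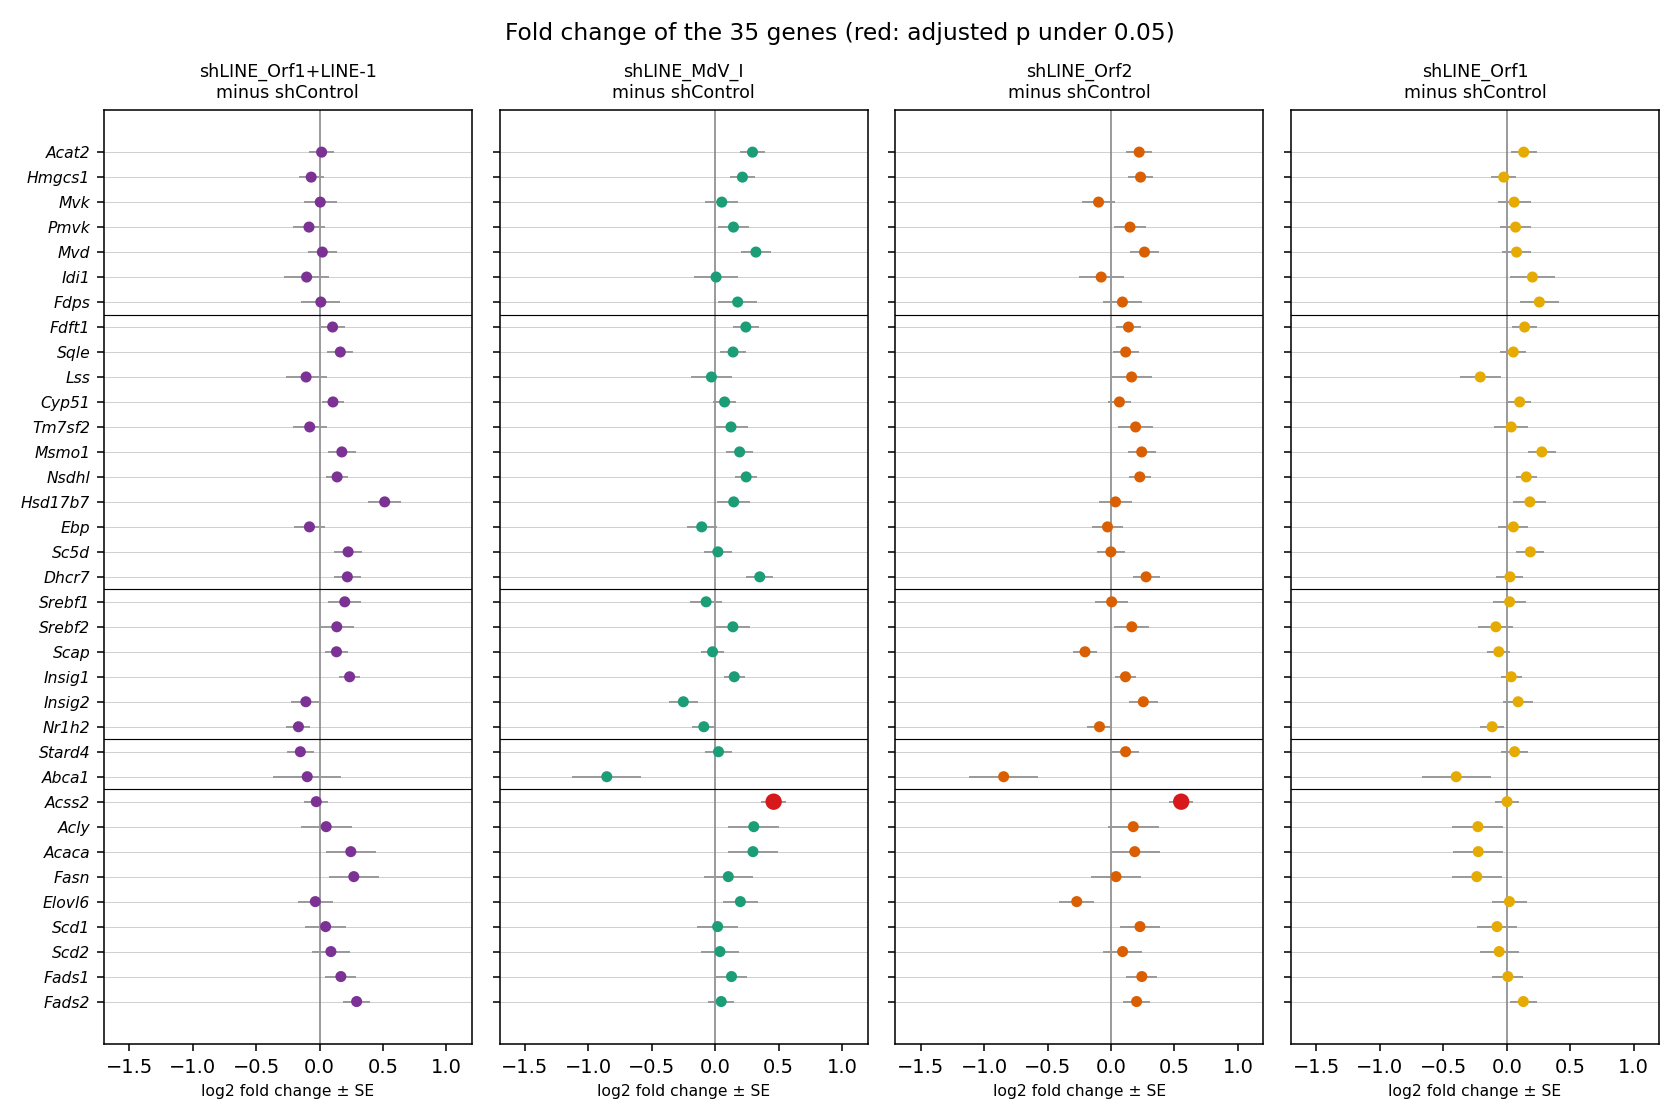
Log2 fold change ± SE (x axis) of each of the 35 genes (y axis, grouped by role from the mevalonate steps at the top to fatty acid synthesis at the bottom) in each of the 4 LINE-1 groups against the shared shControl libraries. Red points mark an adjusted p under 0.05, which only Acss2 reached, at 0.46 in shLINE_MdV_I and 0.55 in shLINE_Orf2.

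None of the 7 mevalonate genes passed the test in any pair, by DESeq2 or edgeR's 5-group fit. Of these 7, 0 to 3 a pair had an unadjusted p under 0.05, against 5.46% to 16.4% of all genes. Without the 2 libraries that stand apart, edgeR called Hmgcs1 lower in shLINE_Orf1+LINE-1 than in shLINE_Orf2 and shLINE_MdV_I, with adjusted p-values of 0.0279 and 0.0366. Hmgcs1, which condenses acetyl-CoA into HMG-CoA, had the smallest 5-group p among them, with an adjusted p of 0.306 by edgeR's quasi-likelihood test. It measured 1103, 1018 and 1055 CPM in shLINE_Orf1+LINE-1, 1308, 1329 and 1220 CPM in shLINE_MdV_I and 1277, 1386 and 1244 CPM in shLINE_Orf2. It measured 994.3, 1152 and 1124 CPM in shLINE_Orf1 and 1242, 999.4 and 1084 CPM in shControl. The shLINE_MdV_I and shLINE_Orf2 libraries lay above those of shLINE_Orf1+LINE-1 and shLINE_Orf1, and 1 shControl library reached into the range of shLINE_MdV_I. The differences from shControl were 0.21 ± 0.10 in shLINE_MdV_I, with an edgeR adjusted p of 0.577, and 0.23 ± 0.10 in shLINE_Orf2, with an edgeR adjusted p of 0.642.

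Acat2, which joins acetyl-CoA units at the first step, and Mvd, which makes isopentenyl diphosphate, had values of the same kind. Acat2 measured 450.5, 417.5 and 389.6 CPM in shLINE_MdV_I against 324.6, 339.1 and 362.6 CPM in shControl, a log2 difference of 0.29 ± 0.10 with an edgeR adjusted p of 0.329. Mvd measured 106.0, 99.8 and 89.1 CPM in shLINE_MdV_I against 65.1, 88.0 and 83.2 CPM in shControl, a log2 difference of 0.32 ± 0.12 with an edgeR adjusted p of 0.365. In both genes the shLINE_MdV_I libraries lay above all shControl libraries. Mouse Acat2 has a close copy, Acat3, and Scd1 and Scd2 resemble each other, so the split of shared reads between such genes is uncertain. Idi1 and Fdps, which make the allylic building blocks, were highest in shLINE_Orf1 replicate 1, at 613.5 and 853.5 CPM, against at most 434.8 and 687.4 CPM in the other 14 libraries. Mvk and Pmvk, the 2 kinases of the pathway, differed from shControl by at most 0.15 on the log2 scale in any group.

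None of the 11 later sterol genes passed the test in any pair in edgeR's 5-group fit. Of these 11, 0 to 3 a pair had an unadjusted p under 0.05, against 5.46% to 16.4% of all genes. Hsd17b7, a keto-reductase of sterol demethylation, had the smallest 5-group p among them, with an adjusted p of 0.202 by edgeR's quasi-likelihood test. It measured 39.2, 40.8 and 43.7 CPM in shLINE_Orf1+LINE-1, 32.9, 35.5 and 27.5 CPM in shLINE_MdV_I and 29.4, 30.6 and 28.7 CPM in shLINE_Orf2. It measured 28.8, 33.6 and 35.9 CPM in shLINE_Orf1 and 29.0, 24.2 and 33.4 CPM in shControl. The 3 libraries with added LINE-1 lay above all 12 others. The difference from shControl was 0.51 ± 0.13 on the log2 scale, with an edgeR adjusted p of 0.157, and that from shLINE_Orf1 was 0.33 ± 0.13, with an edgeR adjusted p of 0.422. DESeq2 called Hsd17b7 higher in shLINE_Orf1+LINE-1 than in shControl, with an adjusted p of 0.0136, and than in shLINE_Orf2, with an adjusted p of 0.0225.

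Sqle, the squalene epoxidase and a control point of the pathway, measured 492.4, 468.4 and 480.1 CPM in shLINE_Orf1+LINE-1, 503.7, 480.7 and 433.4 CPM in shLINE_MdV_I and 462.4, 463.8 and 467.8 CPM in shLINE_Orf2. It measured 401.5, 456.3 and 476.0 CPM in shLINE_Orf1 and 451.7, 370.4 and 464.8 CPM in shControl, and each LINE-1 group overlapped shControl except shLINE_Orf1+LINE-1. Its largest difference from shControl was 0.16 ± 0.10, in shLINE_Orf1+LINE-1, with an edgeR adjusted p of 0.721. Dhcr7, which reduces 7-dehydrocholesterol to cholesterol, measured 250.2, 240.7 and 227.6 CPM in shLINE_MdV_I against 188.1, 160.0 and 215.6 CPM in shControl. The groups did not overlap, and the difference was 0.35 ± 0.11 with an edgeR adjusted p of 0.222. Nsdhl, a decarboxylase of sterol demethylation, was 94.2, 93.1 and 94.1 CPM in shControl and at least 100.3 CPM in all 12 other libraries, with a difference of 0.24 ± 0.08 in shLINE_MdV_I and an edgeR adjusted p of 0.332. Fdft1, Lss, Cyp51, Tm7sf2, Msmo1, Ebp and Sc5d had edgeR adjusted p-values across the 5 groups between 0.539 and 0.87. Fdft1 shares 18.3% of its exon bases with Ctsb on the other strand and Tm7sf2 shares 12.1% with Vps51 on the same strand, which makes their values less certain.

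**Figure D3:**
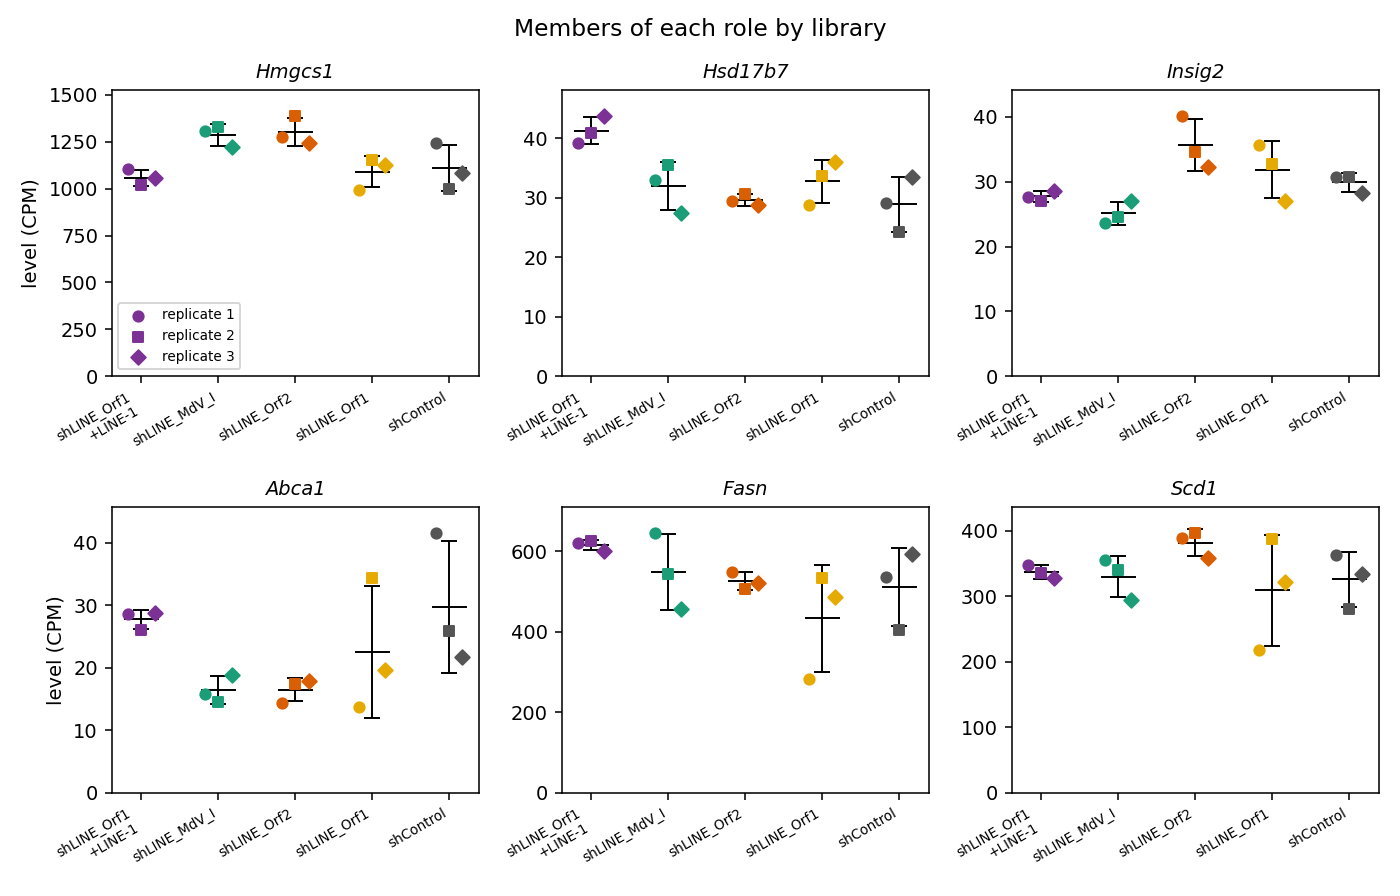
Level in CPM (y axes, from 0) of 6 genes in each library of the 5 groups (x axes), with each point a library and the bars the mean and SD of 3 libraries. Hsd17b7 lies between 39.2 and 43.7 CPM in shLINE_Orf1+LINE-1, above all other libraries, while Abca1 spans 13.7 to 34.3 CPM within shLINE_Orf1 and 21.7 to 41.6 CPM within shControl.

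None of the 6 regulators passed the test in any pair in edgeR's 5-group fit. Of these 6, 0 to 2 a pair had an unadjusted p under 0.05, against 5.46% to 16.4% of all genes. Insig2, one of the proteins that hold SCAP in the endoplasmic reticulum, had the smallest 5-group p among them, with an adjusted p of 0.176 by edgeR's quasi-likelihood test. It measured 27.6, 27.0 and 28.6 CPM in shLINE_Orf1+LINE-1, 23.6, 24.6 and 27.1 CPM in shLINE_MdV_I and 40.1, 34.6 and 32.4 CPM in shLINE_Orf2. It measured 35.7, 32.7 and 27.1 CPM in shLINE_Orf1 and 30.7, 30.8 and 28.2 CPM in shControl. The shLINE_MdV_I libraries lay below and the shLINE_Orf2 libraries above all shControl libraries. The difference between shLINE_MdV_I and shLINE_Orf2 was -0.51 ± 0.12, with an edgeR adjusted p of 0.151, while DESeq2 gave it an adjusted p of 0.00805 and edgeR without the 2 libraries that stand apart one of 0.013.

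Srebf1 and Srebf2, which encode the SREBP factors, were not called in the 5-group fit. Srebf1 measured 257.9, 265.6 and 249.2 CPM in shLINE_Orf1+LINE-1, 217.8, 218.6 and 204.1 CPM in shLINE_MdV_I and 235.7, 223.5 and 216.5 CPM in shLINE_Orf2. It measured 172.0, 278.7 and 233.3 CPM in shLINE_Orf1 and 216.2, 225.6 and 231.6 CPM in shControl. The 3 libraries with added LINE-1 lay above those of shControl, with a log2 difference of 0.20 ± 0.13 and an edgeR adjusted p of 0.742. They also lay above those of shLINE_MdV_I, where the edgeR adjusted p for Srebf1 was 0.596, but 0.0411 without the 2 libraries that stand apart. Srebf2 measured 293.9, 314.8 and 315.8 CPM in shLINE_Orf1+LINE-1, 323.5, 306.9 and 296.1 CPM in shLINE_MdV_I and 334.6, 294.6 and 313.3 CPM in shLINE_Orf2. It measured 192.7, 304.6 and 295.7 CPM in shLINE_Orf1 and 263.6, 271.6 and 306.4 CPM in shControl, and its largest difference from shControl was 0.16 ± 0.14 in shLINE_Orf2, with an edgeR adjusted p of 0.971.

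Insig1, itself a target of SREBP, measured 276.7, 274.1 and 283.1 CPM in shLINE_Orf1+LINE-1, 274.7, 255.0 and 255.1 CPM in shLINE_MdV_I and 264.6, 254.2 and 246.9 CPM in shLINE_Orf2. It measured 219.4, 254.9 and 250.9 CPM in shLINE_Orf1 and 234.8, 228.5 and 244.4 CPM in shControl. Every library of the first 3 groups lay above every shControl library, yet the largest difference from shControl was 0.24 ± 0.08, in shLINE_Orf1+LINE-1, with an edgeR adjusted p of 0.415. Scap measured 116.8, 126.1 and 120.2 CPM in shLINE_Orf1+LINE-1 against 99.4, 89.5 and 98.4 CPM in shLINE_Orf2, a log2 difference of 0.34 ± 0.09 with an edgeR adjusted p of 0.17 and a DESeq2 adjusted p of 0.0109. Nr1h2, which encodes the liver X receptor beta, stayed between 38.3 and 50.2 CPM in all 15 libraries.

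Abca1, the exporter of cellular cholesterol and a target of the liver X receptors, had the largest fitted differences of the list and also the largest spread. It measured 28.6, 26.0 and 28.7 CPM in shLINE_Orf1+LINE-1, 15.8, 14.6 and 18.8 CPM in shLINE_MdV_I and 14.3, 17.3 and 17.8 CPM in shLINE_Orf2. It measured 13.7, 34.3 and 19.6 CPM in shLINE_Orf1 and 41.6, 25.8 and 21.7 CPM in shControl. The shLINE_MdV_I and shLINE_Orf2 libraries lay below all shControl and all shLINE_Orf1+LINE-1 libraries. The log2 differences from shControl were -0.86 ± 0.27 in shLINE_MdV_I and -0.85 ± 0.27 in shLINE_Orf2, with edgeR adjusted p-values of 0.266 and 0.38, and DESeq2 did not call either. Stard4, which carries sterol through the cytosol, differed from shControl by at most -0.15 on the log2 scale, in shLINE_Orf1+LINE-1.

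Among 13 further genes of liver X receptor response, sterol esterification and efflux, 1 passed the test in shLINE_MdV_I against shControl, where 0.594% of all genes did, and it was Apoe. Apoe, which encodes the main apolipoprotein of the brain, measured 310, 325 and 358 CPM in shLINE_Orf1+LINE-1, 180, 187 and 250 CPM in shLINE_MdV_I and 290, 300 and 283 CPM in shLINE_Orf2. It measured 539, 473 and 372 CPM in shLINE_Orf1 and 398, 615 and 366 CPM in shControl. Apoe fell by 1.16 on the log2 scale in shLINE_MdV_I relative to shControl (SE 0.19), with an edgeR adjusted p of 0.00789, and by 1.17 relative to shLINE_Orf1 (SE 0.19), with an edgeR adjusted p of 0.0106. Apoe is also made by astrocytes, and the 6 astrocyte markers summed to between 2581 and 2677 CPM in shLINE_MdV_I and between 2371 and 2993 CPM in shControl. Slc1a3 made up most of that sum, with a 5-group p of 0.531, while Aldoc, S100b and Aldh1l1 had unadjusted p-values of 0.00578, 0.00957 and 0.0303. In shLINE_MdV_I against shControl, Aldoc differed by 0.28 ± 0.10 and S100b by -0.59 ± 0.28 on the log2 scale, with edgeR adjusted p-values of 0.298 and 0.578. Their part in this result was not tested.

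None of the 11 genes of the isoprenoid branch and none of the 13 genes of SREBP processing and sterol-regulated degradation passed the edgeR test in any pair, and 0 to 3 of each had an unadjusted p under 0.05, against 5.46% to 16.4% of all genes over the 10 pairs. The same held for the 25 tested of 26 other fatty acid genes, of which 0 to 5 a pair had an unadjusted p under 0.05. Elovl2, an elongase of polyunsaturated fatty acids, came closest at 0.48 ± 0.11 in shLINE_MdV_I against shControl, with an edgeR adjusted p of 0.07. In the glycolysis list, which also feeds acetyl-CoA, 0 of 17 genes were called in any pair, but all 17 had a positive difference between shLINE_Orf2 and shControl, with a median of 0.23 on the log2 scale, and 5 had an unadjusted p under 0.05. Of all genes in that pair 47.7% were positive, the median was -0.01 and 7.01% had an unadjusted p under 0.05. The mean of the 17 genes relative to shControl was 0.63, 0.26 and -0.02 in the 3 shLINE_Orf2 libraries, so that the libraries differed widely, and shLINE_Orf2 replicate 1, the highest, was also the highest for Acss2. The part of this in the value of Acss2 was not tested.

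Against shControl, the calls among the 35 genes were few. In shLINE_Orf1+LINE-1, 0 of 35 genes were called by edgeR, against 0.139% of all genes, and 3 had an unadjusted p under 0.05, against 8.76%. DESeq2 called 1 of the 35 there, among 208 of all genes. In shLINE_MdV_I, 1 of 35 was called, against 0.594% of all genes, and 9 had an unadjusted p under 0.05, against 8.63%. In shLINE_Orf2, 1 of 35 was called, against 0.192%, and 10 had an unadjusted p under 0.05, against 7.01%. In shLINE_Orf1, 0 of 35 were called by edgeR or DESeq2, against 0.178% of all genes for edgeR and 215 genes for DESeq2. Of the 35, 1 had an unadjusted p under 0.05, against 10.5%. The median log2 difference of the 35 genes from shControl was 0.05 in shLINE_Orf1+LINE-1, 0.13 in shLINE_MdV_I, 0.14 in shLINE_Orf2 and 0.04 in shLINE_Orf1, where it turned to -0.03 without a scaling factor. The median over all genes was between -0.02 and -0.01 in these comparisons with scaling, and -0.08 in shLINE_Orf1 without a scaling factor. Of the 35 genes, 23 were positive in shLINE_Orf1+LINE-1, 28 in shLINE_MdV_I, 27 in shLINE_Orf2 and 24 in shLINE_Orf1, against 46.3%, 47.6%, 47.7% and 48.6% of all genes. The count was 13 in shLINE_Orf1 without a scaling factor, and 23 in shLINE_MdV_I without shControl replicate 2. These 4 comparisons share the shControl libraries, and the shLINE_MdV_I median was 0.04 without shControl replicate 2.

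Adding full-length LINE-1 to the shLINE_Orf1 hairpin changed no gene of the list past the threshold. Between shLINE_Orf1+LINE-1 and shLINE_Orf1, 0 of 35 genes were called by edgeR or DESeq2, against 0% of all genes by edgeR and 20 by DESeq2. Of the 35, 5 had an unadjusted p under 0.05, against 11.1% of all genes. These 5 were Hsd17b7, Scap, Insig1, Acaca and Fasn, all with a positive difference. In shLINE_Orf1 replicate 1, which stands apart, all 5 lay below the mean of the other libraries. Their log2 deviations there ran from -0.17 for Scap to -1.01 for Acaca. For Hsd17b7, Scap, Insig1 and Fasn, the libraries with added LINE-1 lay above every shLINE_Orf1 library. The part of shLINE_Orf1 replicate 1 in these differences was not tested. The median of the 35 differences between shLINE_Orf1+LINE-1 and shLINE_Orf1 was 0.00. Between shLINE_Orf2 and shLINE_Orf1, 0 of 35 were called by edgeR, against 0% of all genes, and 5 had an unadjusted p under 0.05, against 11.4%. DESeq2 called Acss2 in this pair, among 132 of all genes. Between shLINE_MdV_I and shLINE_Orf1, 1 of 35 was called, against 0.687%, and 6 had an unadjusted p under 0.05, against 16.4%. Between shLINE_MdV_I and shLINE_Orf2, 0 of 35 were called by edgeR, against 0.112%, and 2 had an unadjusted p under 0.05, against 5.46%. DESeq2 called Insig2 in this pair, among 119 of all genes.

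The group with added LINE-1 was the tightest of the 5, with a median coefficient of variation of 3.22% over the 35 genes, against 6.30% in shLINE_MdV_I, 5.92% in shLINE_Orf2, 13.3% in shLINE_Orf1 and 11.7% in shControl. This was not particular to the list. Over genes of the whole count table, chi-square over its degrees of freedom between its replicates was 7.32 to 10.6, against 8.75 to 261 in the other groups. Between shLINE_Orf1+LINE-1 and shLINE_Orf2, 1 of 35 genes was called, against 0.238% of all genes, and 7 had an unadjusted p under 0.05, against 9%. Between shLINE_Orf1+LINE-1 and shLINE_MdV_I, 1 of 35 was called, against 0.68%, and 7 had an unadjusted p under 0.05, against 8.51%. When only the 2 compared groups entered the fit, edgeR called 14 of the 35 against shLINE_Orf2, where it called 7.09% of all genes, and 10 of the 35 against shLINE_MdV_I, where it called 8.21% of all genes. Against shLINE_Orf2, the genes Acat2, Hmgcs1, Pmvk, Mvd, Lss, Insig2, Stard4 and Acss2 were then lower in shLINE_Orf1+LINE-1, and Hsd17b7, Sc5d, Srebf1, Scap, Abca1 and Fasn higher. Against shLINE_MdV_I, the genes Acat2, Hmgcs1, Pmvk, Mvd, Fdps and Acss2 were lower, and Hsd17b7, Srebf1, Abca1 and Fads2 higher. These comparisons share the shLINE_Orf1+LINE-1 libraries. Abca1 differed by 0.75 from shLINE_Orf2 and by 0.76 from shLINE_MdV_I on the log2 scale, with edgeR adjusted p-values of 0.00119 and 0.000791.

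**Figure D4:**
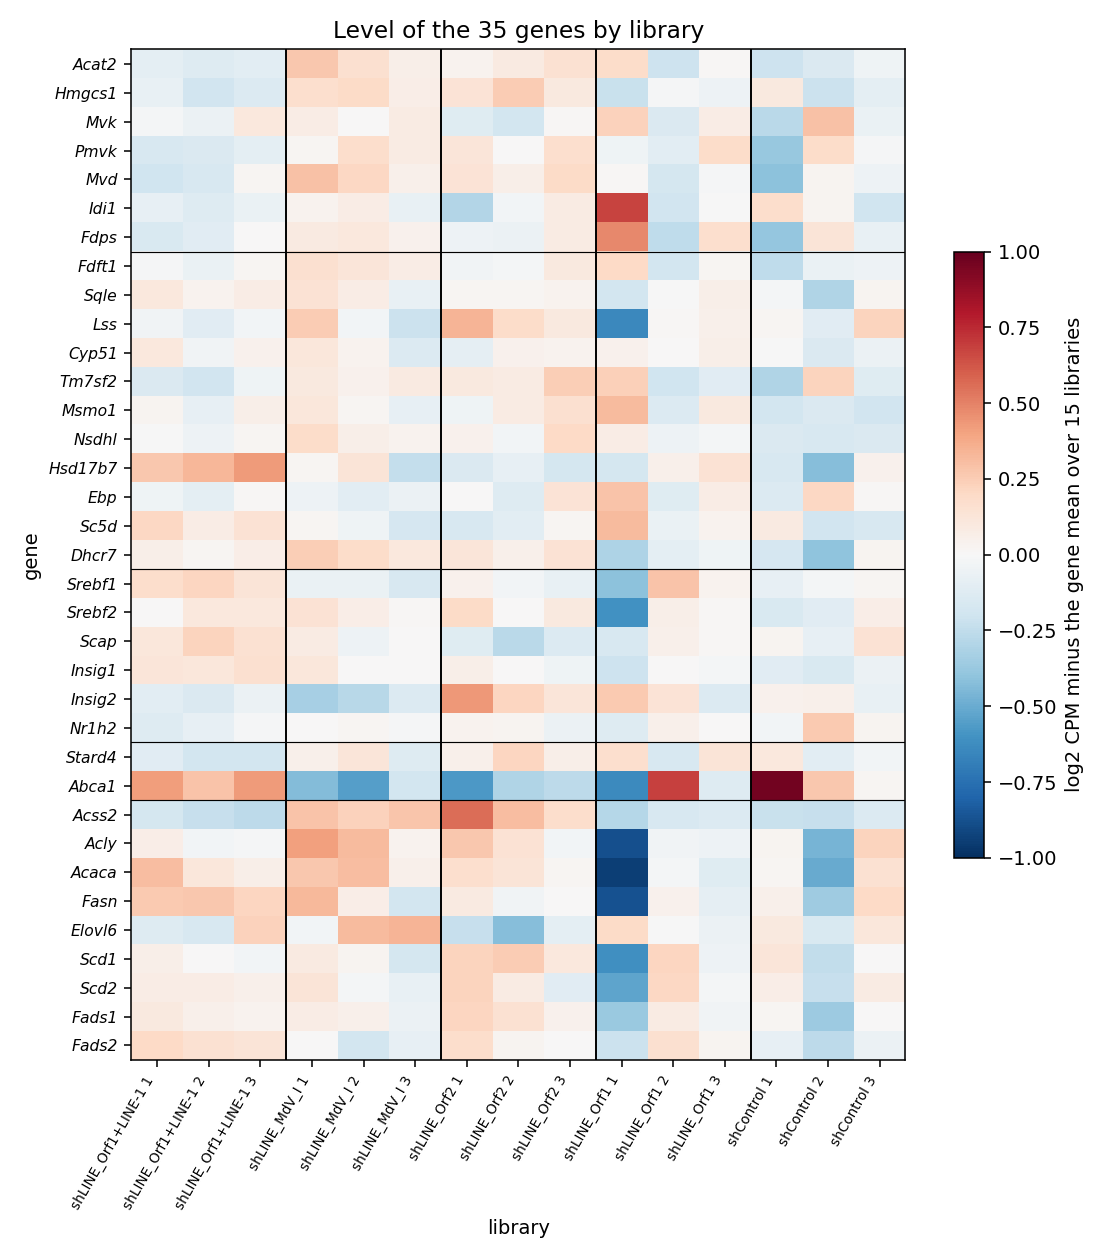
Log2 CPM of the 35 genes (rows, grouped by role) in the 15 libraries (columns), each minus the mean of the gene over all libraries, on a colour scale from -1 to 1. In shLINE_Orf1 replicate 1 Fasn, Acly and Acaca are low and Idi1 and Fdps high, while the Acss2 row is high in the 6 shLINE_MdV_I and shLINE_Orf2 libraries.

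Per length, the levels of the 35 genes in shControl ran from 946 ± 212 TPM for Scd2 to 5.04 ± 2.17 TPM for Abca1 (SD, n = 3). Fdps followed Scd2 at 779.7 ± 77.5 TPM, Hmgcs1 at 583.6 ± 126.5 TPM and Msmo1 at 337.9 ± 37.3 TPM. Scd2 and Fdps were closer than the SD of Scd2, so their order is not settled. Acss2 stood at rank 24 of 35, at 57.4 ± 8.04 TPM, and Insig1 at 151.9 ± 21.9 TPM stood above Insig2 at 25.2 ± 2.33 TPM. Srebf1 stood at 114.9 ± 15.3 TPM and Srebf2 at 95.2 ± 14.8 TPM, and their order was not tested.

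The library shLINE_Orf1 replicate 1 deviated most from the others over the 35 genes. Its log2 CPM minus the mean of the other libraries had an SD of 0.44 over the 35 genes, against 0.09 to 0.25 in the other 14 libraries. Over the 35 genes, which are not independent replicates, Spearman's rho between count-weighted transcript length and this deviation was -0.67 in shLINE_Orf1 replicate 1 and -0.48 in shControl replicate 2, as a description. In the other libraries rho ran from -0.56 in shLINE_Orf2 replicate 3 to 0.71 in shControl replicate 1. A rho of this size was thus not particular to the 2 libraries that stand apart. The deviations of Acaca, Acly and Fasn in shLINE_Orf1 replicate 1 were -1.01, -0.94 and -0.94, and that of Acss2 was -0.30.

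**Figure D5:**
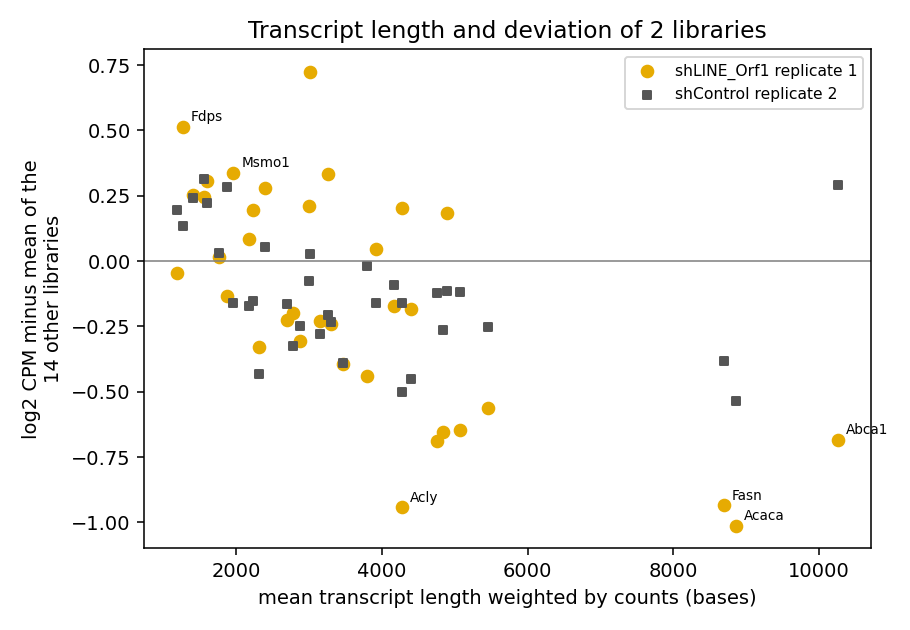
Deviation of each of the 35 genes (y axis, log2 CPM minus the mean of the 14 other libraries) against its mean transcript length weighted by counts (x axis, bases) in the 2 libraries that stand apart. In shLINE_Orf1 replicate 1 the points fall with length, to -1.01 for Acaca, and in shControl replicate 2 they fall less, with Abca1 as an exception at 0.29.

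The authors' deposited table of a mixed model for young LINE-1 lists all 35 genes among its 17921. In the authors' deposited table the adjusted p is 1 for every gene, and 0 of the 35 had an unadjusted p under 0.05, against 2.66% of its genes. The smallest p of the 35 in the authors' deposited table was 0.132, for Pmvk, and that of Acss2 was 0.749, with estimates on a scale that is not named.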

How the data were processed

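Expected counts (estimated counts of reads per transcript, which need not be whole) for 15 libraries were deposited by the authors without normalization. Per the submitters' processing notes, cutadapt, RSEM and the build mm10 were used, with neither role nor version given. Of 111462 transcripts, 110115 had a gene in GENCODE M21, and their counts were summed over 34910 genes and then rounded. The remaining 1347 transcripts held 0.595% to 0.650% of counts and were left out, as was 1 blank row. A second deposited table gives the authors' estimate, t score and p-value per gene for a mixed model, per the file headers. Its estimates are printed nowhere, since their scale is not named.

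Low genes were removed with filterByExpr of edgeR 4.0.16 (minimum count 10), libraries were scaled with TMM, and 1 model of the 5 groups was fitted by quasi-likelihood with robust dispersions in R 4.3.3. Tests were 10 pairs and 1 test across groups, adjusted by Benjamini-Hochberg over 15141 genes, with calls at an adjusted p under 0.05. The SE is the log2 fold change divided by the square root of F. The scripts were tested on simulated data. DESeq2 1.42.0 was an alternative, beside other scalings, filters, covariates and samples. Groups were read from the titles. The members and lists were chosen with earlier results of these data known. Values per library are given for Acss2, for 9 further genes set by the naming rule whatever their result (such as Hmgcs1, Sqle and Fasn), and for the gene of each role with the smallest p across groups; others named were chosen after their values were seen. Promoters are from RefSeq (GRCm38.p6) and 28 of 35 genes matched by symbol. Figures used matplotlib 3.10.9 and tables pandas 2.3.3.

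Every pair of replicates was farther apart than counting noise allows (chi-square over its degrees of freedom, 7.32 to 261). Acss2 had between 3466 and 7340 counts in each library.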

Additional observations from a re-analysis of the deposited data

How the results depend on the processing

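The call of Acss2 across the 5 groups held under every alternative fit, and its direction was the same in all fits of the 5 pairs in which it was called. The number of genes called was less stable, and the causes were not tested. Across the 5 groups it was 6 with DESeq2 and 5 without shLINE_Orf1 replicate 1 and shControl replicate 2. Library size with no scaling factor took each of the 5 pairwise calls to 0, and no filter took shLINE_MdV_I against shControl and against shLINE_Orf1 to 0. With the last number of the library description as a covariate, shLINE_MdV_I against shLINE_Orf1 had 8 calls, among 2059 of all genes. Acss2, Lss, Dhcr7, Srebf2, Acly, Acaca and Fasn were higher in shLINE_MdV_I there, and Insig2 was lower. Without the 2 libraries there was 1 call in shLINE_Orf2 against shLINE_Orf1, among 24 of all genes, and 1 in shLINE_MdV_I against shLINE_Orf2, among 174. There were 5 in shLINE_Orf1+LINE-1 against shLINE_Orf2, among 568, and 4 against shLINE_MdV_I, among 575. DESeq2 gave 1 in shLINE_Orf1+LINE-1 against shControl, among 208 of all genes, and 1 in shLINE_Orf2 against shLINE_Orf1, among 132. DESeq2 also gave 1 in shLINE_MdV_I against shLINE_Orf2, among 119, and 3 in shLINE_Orf1+LINE-1 against shLINE_Orf2, among 268. Fitting the compared groups alone, 0 were called in shLINE_Orf2 against shControl and in shLINE_MdV_I against shControl, where 4 and 29 of all genes were. In shLINE_MdV_I against shLINE_Orf1, 0 were called, and 0 of all genes. There was 1 call in shLINE_MdV_I against shLINE_Orf2, among 198, and 14 and 10 in shLINE_Orf1+LINE-1 against shLINE_Orf2 and shLINE_MdV_I, among 1030 and 1190. Leaving out 1 library at a time gave 0 to 2 calls in shLINE_Orf1+LINE-1 against shLINE_Orf2, and 0 to 1 in shLINE_Orf1+LINE-1 against shControl and shLINE_MdV_I, shLINE_MdV_I against shControl, shLINE_Orf1 and shLINE_Orf2, and shLINE_Orf2 against shControl and shLINE_Orf1. It gave 1 across the 5 groups in every case, and 0 in the 2 other pairs. Leaving out any 1 library of shLINE_Orf1+LINE-1 ended each of the 5 pairwise calls of Acss2, as did leaving out any 1 of shLINE_MdV_I for the 3 pairs with that group, any 1 of shControl for the 2 pairs with shControl, and replicate 1 or 2 of shLINE_Orf2 for the 2 pairs with that group. The shLINE_Orf2 call against shControl was also lost without any 1 library of shLINE_MdV_I, and the calls against shControl without shLINE_Orf1 replicate 3. The shLINE_MdV_I call against shLINE_Orf1 was lost without shLINE_Orf1 replicate 1 or 3, and both shLINE_MdV_I calls against shLINE_Orf1 and shControl without shLINE_Orf2 replicate 2.

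The labels do not state whether the replicate numbers pair the samples. The deviations of same-numbered libraries correlated between -0.271 and 0.180 over 30 pairs (median -0.02), of which 3 were over 0.1. Those of libraries with different numbers correlated between -0.229 and 0.303 (median 0.01). With 3 libraries a group and 2 libraries that stand apart, these correlations cannot decide whether the numbers pair the samples. With the replicate block, 1 gene was called across the 5 groups, with an adjusted p for Acss2 of 0.0323, and 0 in every pair, with adjusted p-values for Acss2 of 0.0522 to 0.101 in its 5 pairs. Each group holds 3 libraries, which limits the precision of every value; depth was not tested as a limit.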
